A study of Oryza sativa with 2 samples.

Results

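The 5 genes described here are 4 chitinase genes of rice (Oryza sativa) and 1 lectin-like gene. CHT5, OS04G0493400 and the lectin-like OS04G0493600 are neighbours on chromosome 4, CHT11 lies on chromosome 3, and the class III chitinase gene OS01G0660200 lies on chromosome 1. They were chosen by their FPKM in the 2 libraries of the study, out of the 76131 rows of the deposited table, as chitinase genes and a neighbour that differed in opposite directions. The difference between the libraries is therefore given below as a description, with no test. Leaves of 2-week-old seedlings of the cultivar Ilmi were sequenced under normal growth conditions, as 1 library of nontransgenic control plants (NT) and 1 library labelled PGD1:Roc10; both came from seed germinated on MS medium and grown in greenhouse pots. In the PGD1:Roc10 plants a promoter that the labels describe as active throughout the plant drives Roc10, a homeodomain-leucine zipper transcription factor that the series title connects with lignin synthesis and drought tolerance. How many plants or transgenic lines a library holds is not stated in the labels. With 1 library a group, the spread between plants is unknown, and no difference could be checked in a replicate.

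Mapped read pairs numbered 27683296 in NT and 21866514 in PGD1:Roc10. No row carries the name Roc10, so expression of the transgene, which would test the library's label, was not analysed here. As leaf markers, 14 rows described as chlorophyll a/b binding proteins summed to 19143 FPKM in NT and 18601 FPKM in PGD1:Roc10. Of 2 rows described as the rubisco small chain, 1 averaged at least 1 FPKM, at 55.6 FPKM in NT and 54.9 FPKM in PGD1:Roc10. Of 37 rows described as the seed storage proteins glutelin or prolamin, 4 averaged at least 1 FPKM, and the median was 0 in both libraries. The highest of these seed rows reached 33.4 FPKM in NT and 37.6 FPKM in PGD1:Roc10. FPKM is a fragment count divided by transcript length and library size, which allows a rough comparison of levels between genes. Reads divided between related genes would distort that comparison, and this was not checked. In such bulk samples, fewer cells of a type and less RNA per cell cannot be told apart.

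Chitinases cut chitin, the polymer of N-acetylglucosamine that stiffens fungal cell walls and insect cuticles. Plants make them from unrelated enzyme families: glycoside hydrolase family 18, to which the class III enzymes belong, and family 19, to which the rice genes named CHT belong. Many are pathogenesis-related proteins, which accumulate in infected or wounded tissue, while others are made in healthy organs. The chitin fragments that the enzymes release are sensed in rice by CEBiP, a cell-surface protein that binds chitin through LysM domains, together with its co-receptor kinase CERK1. Small lectins with a hevein-type domain bind chitin without cutting it.

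The 3 neighbours on chromosome 4 were all lower in PGD1:Roc10, by similar factors. CHT5 (IRGSP-1.0, chromosome 4, 24708800 to 24709910) gave 50.1 FPKM in NT and 9.23 FPKM in PGD1:Roc10, a level 5.43-fold lower. OS04G0493400, which the table describes only as similar to chitinase (chromosome 4, 24687752 to 24689297), gave 79.4 FPKM in NT and 13.7 FPKM in PGD1:Roc10, 5.79-fold lower. OS04G0493600, described as similar to lectin C (chromosome 4, 24692700 to 24693326), gave 17.8 FPKM in NT and 2.70 FPKM in PGD1:Roc10, 6.57-fold lower. Lectin C of pokeweed, to which that description refers, is a chitin-binding lectin. The order of the 3 levels was the same in both libraries, with OS04G0493400 highest and the lectin-like gene lowest. OS04G0493400 stood at 1.59 times the level of CHT5 in NT and at 1.49 times in PGD1:Roc10. On the log2(FPKM + 1) scale used for counts below, the differences were -2.45 for OS04G0493400, -2.34 for OS04G0493600 and -2.32 for CHT5.

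The other chitinase genes were higher in PGD1:Roc10, and their levels were nearly equal to each other. CHT11 (chromosome 3, 1860428 to 1861772) gave 17.5 FPKM in NT and 77.5 FPKM in PGD1:Roc10, 4.42-fold higher. OS01G0660200, described as the acidic class III chitinase OsChib3a (chromosome 1, 26885483 to 26886719), gave 18.2 FPKM in NT and 71.4 FPKM in PGD1:Roc10, 3.94-fold higher. The ratio of CHT11 to OS01G0660200 was 0.967 in NT and 1.08 in PGD1:Roc10, although by the table's description and the naming of rice chitinases they come from different enzyme families. Their differences on the log2(FPKM + 1) scale were 2.08 and 1.92. In the authors' deposited table the 4 chitinase genes shared a p of 5e-05 and a q of 0.0111 from Cuffdiff on these 2 libraries and were called significant. The chitinases OS01G0687400 and OS05G0247100, described below, had the same Cuffdiff p and q, so the shared value does not rank these genes. The lectin-like gene had p = 0.00495 and q = 0.393 in the authors' deposited table and was not called.

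**Figure D1:**
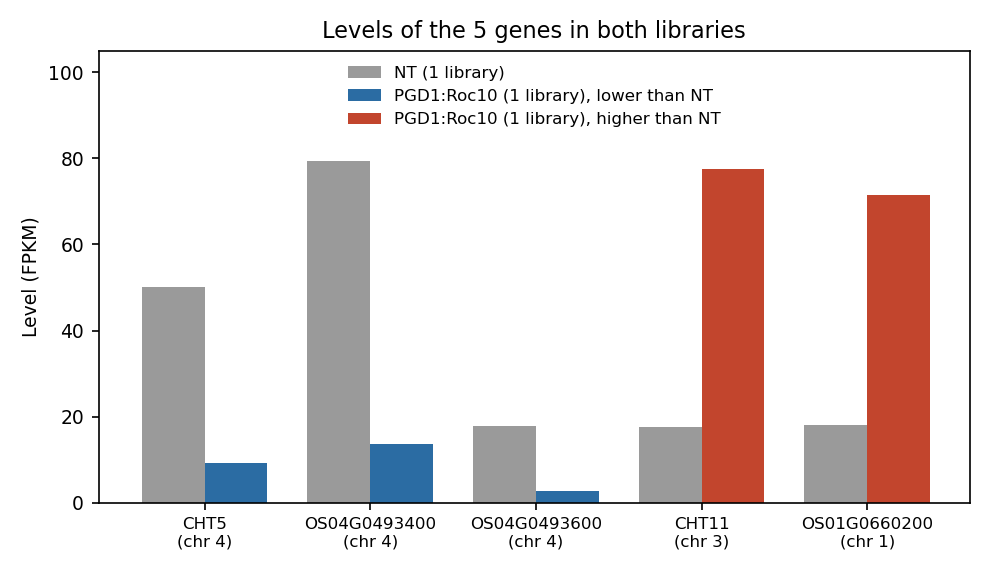
Level in FPKM (vertical axis, starting at 0) of the 5 genes in NT (grey) and in PGD1:Roc10 (blue where lower, red where higher), with 1 library per bar and therefore no error bar. The 3 chromosome 4 genes stand at 17.8 to 79.4 FPKM in NT and at 2.70 to 13.7 FPKM in PGD1:Roc10, while CHT11 and OS01G0660200 go from near 18 FPKM to above 71 FPKM.

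The genes changed places between the libraries. CHT5 stood at 2.86 times the level of CHT11 in NT, and CHT11 at 8.40 times the level of CHT5 in PGD1:Roc10. The chromosome 4 chitinases together gave 130 FPKM in NT and 22.9 FPKM in PGD1:Roc10, which is 107 FPKM less. CHT11 and OS01G0660200 together gave 35.7 FPKM in NT and 149 FPKM in PGD1:Roc10, which is 113 FPKM more. All 4 summed to 165 FPKM in NT and 172 FPKM in PGD1:Roc10, but they were chosen for opposite differences in these same values, so nothing can be read from that balance.

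Rows with a mean of at least 1 FPKM over both libraries are called measured, and all 5 genes were among them. Of the 21875 measured rows in all, 1.29% were 2-fold or more lower in PGD1:Roc10 and 2.29% at least 2-fold higher on the log2(FPKM + 1) scale, where low values give too small a fold. All 5 genes lay past 2-fold, 3 lower and 2 higher, which their choice fixes. Counted from the lowest difference of all measured rows, OS04G0493400, OS04G0493600 and CHT5 held ranks 66, 67 and 68. CHT11 and OS01G0660200 held ranks 168 and 196 from the highest. Past 4-fold lay 0.402% of the measured rows on the lower side, with all 3 chromosome 4 genes, and 0.832% on the higher side, with CHT11. With the FPKM totals of the libraries set equal, the median difference of all measured rows moved from -0.01 to -0.19, and the split of 502 higher and 282 lower rows became 408 and 383. The 3 chromosome 4 genes then lay between -2.65 and -2.49 and the other pair between 1.71 and 1.87, still past 2-fold. Short RNA rows held 18.1% of the FPKM total in NT and 31.0% in PGD1:Roc10. With the totals set equal without short RNA rows, 530 rows were higher and 271 lower, with a median difference of 0.02. With the upper quartiles set equal, 501 were higher and 284 lower, with a median difference of -0.01.

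**Figure D2:**
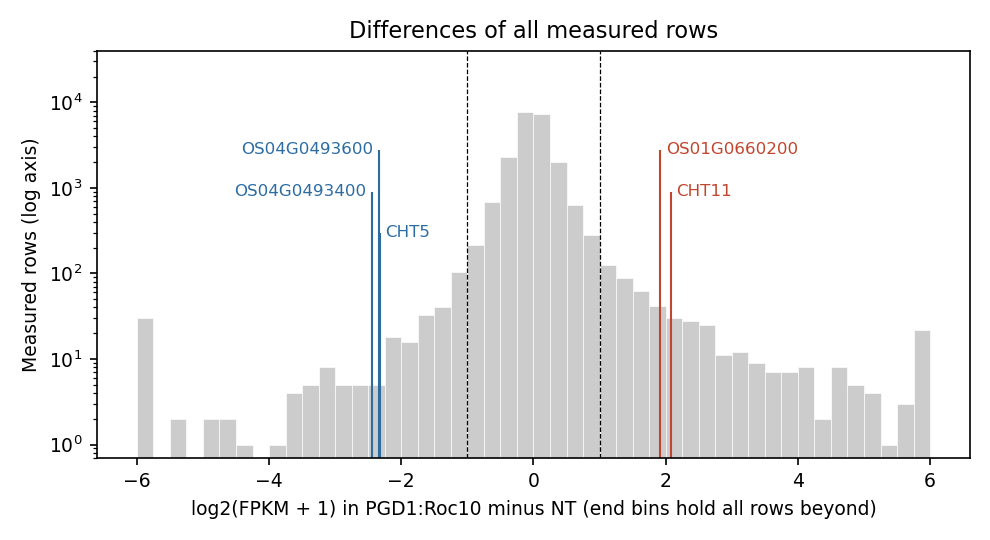
Number of measured rows (vertical log axis) by difference, log2(FPKM + 1) in PGD1:Roc10 minus NT (horizontal axis), with dashed lines at 2-fold and the 5 genes marked in blue (lower) and red (higher). The 3 chromosome 4 genes fall within a narrow band from -2.45 to -2.32, and CHT11 and OS01G0660200 lie at 2.08 and 1.92, while most rows lie close to 0.

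Opposite directions were also seen among the other chitinase genes. Searching symbols and descriptions for chitinases and chitinase-like xylanase inhibitors gave 47 rows, of which 24 averaged below 1 FPKM and 23 were measured. Of the 23, 3 were at least 2-fold higher and 4 at least 2-fold lower, or 30.4%, against 3.58% of all measured rows in either direction, but the 4 chitinases chosen for their difference supply most of these. Without them 1 of 19 was higher and 2 were lower. The median difference of the 23 rows was 0.00 on the log2 scale, as it was for the 19, and that of all measured rows was -0.01.

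The 1 further chitinase that was 2-fold higher was OS01G0687400 (chromosome 1, 28354881 to 28356067), at 42.6 FPKM in PGD1:Roc10 against 5.46 FPKM in NT. At 7.80-fold it differed more than CHT11 or OS01G0660200. Of the 2 that were lower, OS05G0247100 (chromosome 5, 8902500 to 8903789), described as similar to a class III enzyme, was the most abundant chitinase in both libraries. It gave 212 FPKM in PGD1:Roc10 against 468 FPKM in NT, 2.21-fold lower. The other, OS12G0257400, similar to an endochitinase, had 2.87 FPKM in NT and a listed 0 in PGD1:Roc10, and was not called in the authors' deposited table (q = 0.197). OS01G0687400 and OS05G0247100 both had q = 0.0111 in the authors' deposited table, so the authors called 3 chitinases higher and 3 lower among the 47 rows. These include the 4 chitinases chosen for their difference. Among the 43 other chitinase rows, 1 was called higher and 1 lower. Of all rows tested by Cuffdiff in the authors' deposited table, 0.474% were called higher and 0.105% lower, 0.579% in all.

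The remaining 16 measured chitinases stayed within 2-fold on the log2(FPKM + 1) scale. Of the genes named CHT, 11 in all and 6 measured, CHT6 was steady at 50.9 FPKM in PGD1:Roc10 against 48.9 FPKM in NT, so that CHT5 and CHT6 had nearly equal levels in NT and 9.23 and 50.9 FPKM in PGD1:Roc10. CHT1 gave 18.9 and 14.9 FPKM, CHT8 10.7 and 8.86 FPKM, and CHT10 5.51 and 7.22 FPKM, with PGD1:Roc10 first. CHT3 lay at 0.750 and 1.04 FPKM and CHT2 at 0.150 and 0.470 FPKM, and CHT7, CHT9 and CHT12 were listed at 0 in both libraries. Nearest to the 2-fold line were the tulip bulb chitinase-like OS10G0416500, at 4.46 FPKM in PGD1:Roc10 against 9.87 FPKM in NT, and the hevamine-like OS01G0860500, at 23.4 and 12.3 FPKM. The latter shares its locus with another measured row, as does the chitinase A-like OS06G0149400 (19.3 and 19.2 FPKM), so their reads may have been divided. OS10G0416100 gave 31.9 and 33.3 FPKM, the family 19 gene OS08G0522500 25.3 and 19.2 FPKM, and the chitinase-like OS09G0494200 11.7 and 8.47 FPKM. OS11G0700900, OS10G0543400, OS01G0860400, OS10G0416800, OS07G0632000 and OS06G0356800 all lay below 3 FPKM in both libraries.

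**Figure D3:**
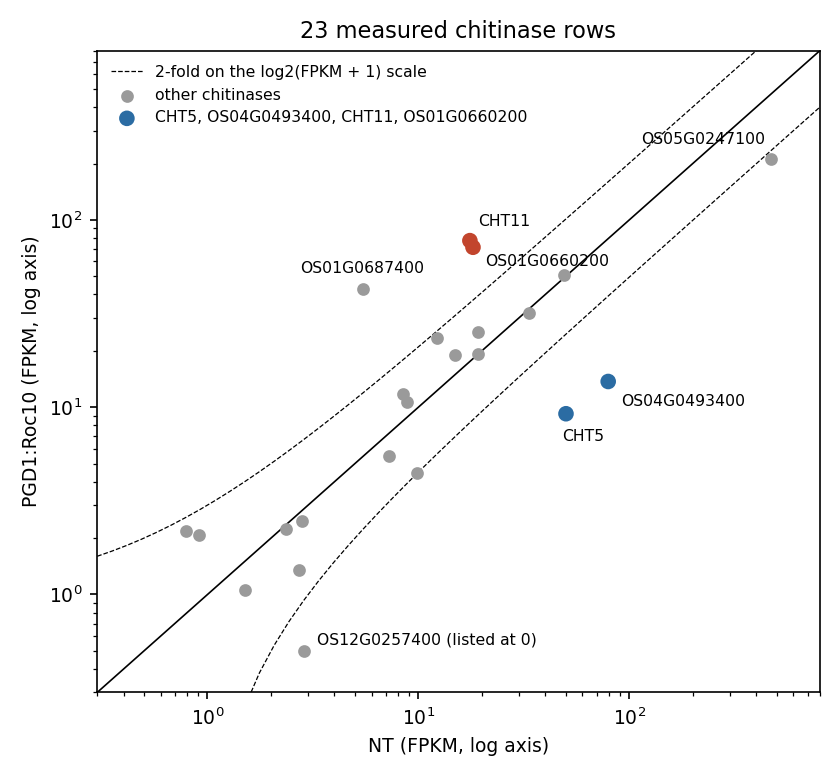
Each point is 1 of the 23 measured chitinase rows, with its level in NT (horizontal log axis, FPKM) and in PGD1:Roc10 (vertical log axis, FPKM), 1 library each; the solid line marks equal levels and the dashed lines 2-fold on the log2(FPKM + 1) scale, and OS12G0257400, listed at 0 in PGD1:Roc10, is drawn at the bottom. CHT5 and OS04G0493400 (blue) lie below the band, CHT11, OS01G0660200 (red) and OS01G0687400 above it, and OS05G0247100 just under its lower edge.

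Counted per length, the whole set of 47 chitinase rows summed to 839 FPKM in NT and 643 FPKM in PGD1:Roc10. OS05G0247100 alone made up 55.8% of this sum in NT and 33.0% in PGD1:Roc10. The chromosome 4 chitinases made up 15.4% in NT and 3.57% in PGD1:Roc10, whereas CHT11 and OS01G0660200 together went from 4.26% to 23.2%. Within the family OS04G0493400 and CHT5 ranked 2 and 3 by level in NT and 11 and 14 in PGD1:Roc10. CHT11 and OS01G0660200 ranked 9 and 8 in NT and 2 and 3 in PGD1:Roc10. The 41 rows outside these 4 genes, OS05G0247100 and OS01G0687400 summed to 200.3 FPKM in NT and 217 FPKM in PGD1:Roc10.

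**Figure D4:**
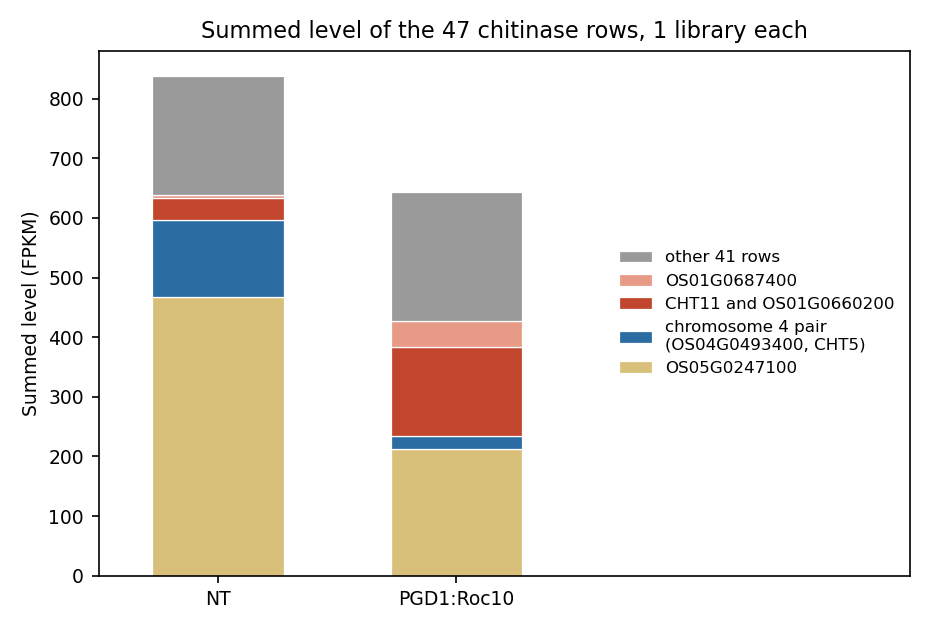
Summed FPKM of the 47 chitinase rows (vertical axis, starting at 0) in NT and PGD1:Roc10, 1 library each, stacked by gene or gene group. OS05G0247100 and the chromosome 4 pair take up less of the PGD1:Roc10 bar, and CHT11 with OS01G0660200 and OS01G0687400 take up more, while the other 41 rows are of similar height.

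The 3 chromosome 4 rows lie within 22.2 kb. OS04G0493400 and the lectin-like OS04G0493600 are 3.40 kb apart, and 15.5 kb separate OS04G0493600 from CHT5, with 1 short RNA row listed at 0 in both libraries between them. No other row overlaps any of the 5 genes. On the far side of CHT5, the response regulator-like OS04G0494400, of a family that acts in cytokinin signalling, starts 9.70 kb away and gave 36.3 FPKM in PGD1:Roc10 against 36.5 FPKM in NT. On the other side, OS04G0493300 ends 16.8 kb before OS04G0493400 and gave 9.48 and 8.86 FPKM. Beyond it the RNA-binding CRM-domain gene OS04G0492900 gave 10.8 and 11.3 FPKM and the calmodulin-like CML22 gave 21.9 and 19.5 FPKM. None of the 6 other measured rows within 50 kb of OS04G0493400 was 2-fold higher or lower, so the 2-fold lower levels took in these 3 rows and neither measured neighbour. Among 16313 overlapping windows of 3 consecutive measured coding rows with a locus of their own, the 3 genes formed the 1 window (0.00613%) in which all were 2-fold lower, and 8 windows (0.049%) had all 3 rows 2-fold higher. That count was made after the values were seen. The 3 genes were chosen as neighbours that differed in these same values, so it was fixed in advance that their window would pass. The share is therefore not a chance rate.

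Around CHT11, the measured row next to it on 1 side had the same direction. OS03G0133000, similar to a NAC-domain transcription factor, starts 0.608 kb from the end of CHT11 and gave 12.8 FPKM in PGD1:Roc10 against 3.88 FPKM in NT, 3.30-fold higher, with q = 0.463 in the authors' deposited table. A non-coding row with the same locus, OS03G0133050, gave 3.77 and 0.903 FPKM, and the reads of the 2 rows may have been divided. These were the only 2 of 17 measured rows within 50 kb of CHT11 that differed 2-fold. The protein kinase-like OS03G0132800, 2.74 kb away on the other side, gave 20.3 FPKM and 20.6 FPKM. The gene of the chitin receptor CEBiP lies in the same stretch, 17.1 kb from CHT11, and gave 83.0 FPKM in PGD1:Roc10 against 79.1 FPKM in NT. The expansin-like EXLA1 (locus shared with another row) gave 40.0 and 61.9 FPKM, the ligase-like 4CLL4 12.1 and 14.1 FPKM, and SAT2 32.4 and 34.0 FPKM. OS03G0131500 (48.9 and 52.5 FPKM), OS03G0132300 (3.95 and 3.11 FPKM) and OS03G0134300 (124 and 132 FPKM) also stayed within 2-fold. Near OS01G0660200, the pyruvate kinase-like OS01G0660300, 1.71 kb away, gave 2.63 FPKM in PGD1:Roc10 against 3.10 FPKM in NT, the C2-domain gene OS01G0659800 gave 1.55 and 1.79 FPKM, and none of its 3 measured neighbours differed 2-fold.

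**Figure D5:**
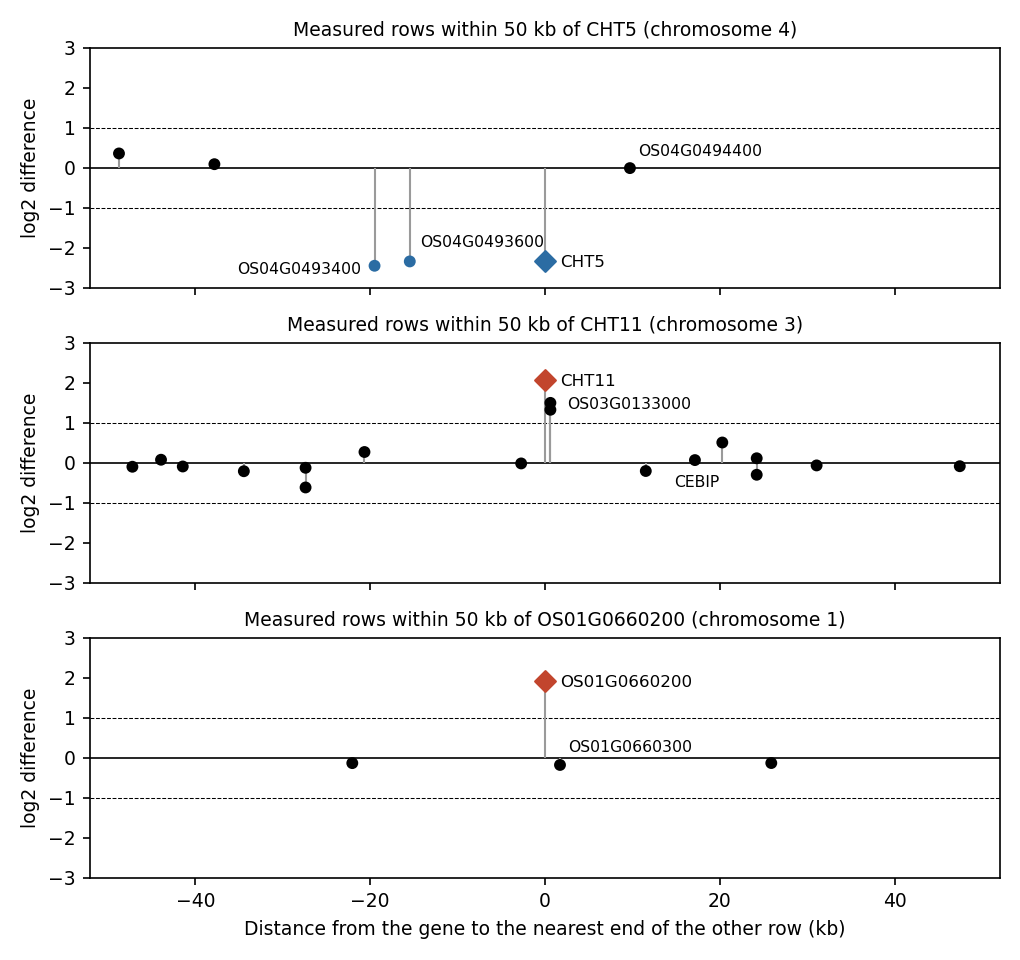
Difference, log2(FPKM + 1) in PGD1:Roc10 minus NT (vertical axis), of measured rows within 50 kb of CHT5, CHT11 and OS01G0660200, by distance from that gene in kb (horizontal axis, 0 at the gene, drawn as a diamond); dashed lines mark 2-fold, and blue points are the other chromosome 4 genes described here. The 3 chromosome 4 genes lie together near -2.4 between neighbours close to 0, CHT11 has 2 neighbouring points above 1 that share a locus, and OS01G0660200 stands alone.

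Chitinase genes within 50 kb of each other formed 9 groups, and 4 of these had at least 2 measured chitinases. Outside the group of CHT5, none of the measured chitinases in these groups differed 2-fold on the log2(FPKM + 1) scale. As plain ratios of FPKM, OS10G0416500 was 2.21-fold lower in PGD1:Roc10 and OS10G0416800 2.29-fold higher. OS11G0700900, in another of the 9 groups, was 2.01-fold lower by the same ratio. On chromosome 10, OS10G0416100 (31.9 and 33.3 FPKM, with PGD1:Roc10 first), OS10G0416500 (4.46 and 9.87 FPKM) and OS10G0416800 (2.08 and 0.911 FPKM) lay side by side. CHT8 and OS10G0543400, elsewhere on that chromosome, gave 10.7 and 8.86 FPKM and 2.47 and 2.81 FPKM. On chromosome 1, OS01G0860400 gave 2.24 and 2.36 FPKM and its neighbour OS01G0860500 gave 23.4 and 12.3 FPKM. The pair of CHT5 and OS04G0493400 was the 1 group of these 4 with every measured chitinase past 2-fold, and it was chosen for that.

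For the lectin-like OS04G0493600, other lectins give a setting. The table describes 70 rows as lectins or chitin-binding proteins outside the kinases and chitinases. SALT, a lectin gene with no description in the table, is not among them. Of the 29 measured, 3 were at least 2-fold lower and none higher, or 10.3% against 3.58% of all measured rows, with a median difference of -0.01, and 1 of the 3 is OS04G0493600 itself. Another was the chitin-binding allergen-like OS11G0592200, at 8.11 FPKM in PGD1:Roc10 against 24.1 FPKM in NT, and the third was the concanavalin A-like OS06G0335900, at 0.920 and 6.24 FPKM. None of the 3 was called in the authors' deposited table, where q was 0.393 for OS04G0493600, 0.253 for OS11G0592200 and 0.999 for OS06G0335900. The 1 lectin row of the 70 that the authors' deposited table does call went the other way: the concanavalin A-like OS06G0210400 had 1.07 FPKM in PGD1:Roc10 and a listed 0 in NT (q = 0.0111), a mean below 1 FPKM. The 3 genes similar to chitin-binding lectin 1 stayed within 2-fold. OS01G0821700 gave 20.02 FPKM in PGD1:Roc10 against 19.6 FPKM in NT, but it shares its locus with another measured row, so its reads may have been divided. OS06G0273100 gave 5.21 and 7.12 FPKM, and OS01G0106600 4.44 and 5.37 FPKM, with PGD1:Roc10 first.

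Genes for sensing chitin, counted together with other LysM-domain genes, showed few differences. Of 14 rows for CEBiP, CERK1 and other LysM-domain proteins, 11 were measured and 1 was at least 2-fold higher, or 9.09% against 3.58% of all measured rows, with a median of 0.15. That gene, OS11G0548600, had 2.51 FPKM in PGD1:Roc10 and a listed 0 in NT, and was called in the authors' deposited table (q = 0.0111). CERK1, the co-receptor of CEBiP, gave 12.1 FPKM in PGD1:Roc10 against 16.4 FPKM in NT, and OS02G0681632 gave 7.20 and 3.76 FPKM. Glucanases and thaumatin-like proteins, which attack fungi alongside chitinases, gave 1 of 28 measured rows at least 2-fold higher and 3 lower, or 14.3%, with a median of -0.03. The lowest difference was that of the thaumatin gene OS12G0630200, at 0.666 FPKM in PGD1:Roc10 against 10.5 FPKM in NT, which was not called in the authors' deposited table (q = 0.999). The glucanase-like OS01G0944700 gave 7.94 and 30.5 FPKM and was called in the authors' deposited table (q = 0.0432), while OS01G0944900, at 12.5 and 4.86 FPKM, was not (q = 0.999).

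Likeness to CHT5 and to CHT11 was measured as the distance between log2(FPKM + 1) values in the 2 libraries, among coding genes with a symbol or an informative description. The genes closest to CHT5 were SALT, a mannose-binding lectin gene of rice known to respond to salt (8.31 FPKM in PGD1:Roc10 against 68.1 FPKM in NT, distance 0.46), the germin gene GER5 (8.88 and 34.4 FPKM, distance 0.53) and the carboxyl methyltransferase gene OS11G0256900 (13.6 and 42.1 FPKM, distance 0.56). The gene closest to CHT11 was OS01G0660200, at a distance of 0.12. Next were the glutathione S-transferase gene OS10G0531400, at 77.2 FPKM in PGD1:Roc10 against 24.2 FPKM in NT (distance 0.44), and the oxygenase-like OS10G0536400, at 56.9 and 14.5 FPKM (distance 0.51), which shares its locus with another row. With 2 values per gene, such likeness says only that the levels are close in these libraries.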

How the data were processed

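Leaf RNA of each group went into 1 strand-specific library, per the labels' protocols. The authors aligned reads with TopHat 2.0.12 to IRGSP-1.0 with Ensembl Plants release 23 and obtained FPKM values with Cufflinks and Cuffdiff 2.2.1, per the file headers. Each deposited p-value or q-value is Cuffdiff's, for 1 library against 1, and was only copied. Read numbers are those of the deposited summary sheet. Without counts per gene, the depth of any 1 value is unknown. Not given in the sources used here are the strand and normalization settings of the counting, and whether starts count from 0 or 1.

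Differences are log2(FPKM + 1) in PGD1:Roc10 minus NT. Printed folds are plain ratios of FPKM. No test was made. The 5 genes, the 4 gene lists (patterns on symbols and descriptions) and the alternatives were chosen with earlier results of these data known. Named genes are the 5 genes, measured chitinases, informatively described measured neighbours within 50 kb, the 3 largest differences of each other list and the 3 genes most like CHT5 and CHT11. A gene symbol counted as informative. OS04G0493300, OS03G0133050, OS06G0210400, the chitinases below 1 FPKM and the 3 genes similar to chitin-binding lectin 1 were named after their values were seen. Reads of closely related chitinases may have been divided between copies. The RefSeq gene table (ASM3414082v1) matched 2 of the 5 genes and was not used, and sequences were not used here. Calculations ran in Python 3.11.15 with NumPy 2.4.6, pandas 2.3.3 and matplotlib 3.10.9. Only the differences and fold counts were tested on simulated data, made without noise, so their recovery was fixed in advance.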

Additional observations from a re-analysis of the deposited data

How the results depend on the processing

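The alternatives tried were pseudocounts of 0.1, 0.5 and 5, 3 ways of scaling the libraries and other fold thresholds. The second copy of the values in the Cuffdiff table was also used. A pseudocount, a threshold or a copy of the same values cannot change a direction. The scaling factors on PGD1:Roc10 ran from 0.863 to 1.02, too close to 1 to reverse genes chosen for large differences. It was therefore fixed in advance that the 5 genes kept their direction. Their differences ranged from -2.65 to -2.17 for OS04G0493400, from -2.51 to -1.95 for CHT5, from -2.67 to -1.56 for OS04G0493600, from 1.87 to 2.14 for CHT11 and from 1.71 to 1.97 for OS01G0660200. At a 4-fold threshold OS01G0660200, at 1.92, was no longer past it. Counts moved more, as fewer or more rows pass by construction. Over all rows 749 were higher and 483 lower with a pseudocount of 0.1. With a pseudocount of 5 the counts were 214 higher and 100 lower, at 1.5-fold 1122 and 856, at 4-fold 182 and 88, and above a mean of 5 FPKM 249 and 138. Of the chitinases, 5 were higher and 5 lower with a pseudocount of 0.1, 6 and 6 at 1.5-fold, and 2 and 2 at 4-fold, and without the 5 genes 1 was higher and 2 were lower. Of the lectins, 1 was higher and 3 lower with a pseudocount of 0.1, at 1.5-fold, without a filter and above a mean of 0.5 FPKM, and 0 and 1 at 4-fold. Of the rows for CEBiP, CERK1 and other LysM-domain proteins, 0 were higher with a pseudocount of 5, at 4-fold and above 5 FPKM. At 1.5-fold 2 were higher, with 0 lower in each setting. Of the glucanases and thaumatins, 1 was higher and 5 lower with a pseudocount of 0.1; 0 were higher and 2 lower with a pseudocount of 5; 4 were higher and 5 lower at 1.5-fold; and 0 were higher and 1 lower at 4-fold. No paired analysis was possible because each group has 1 library, and for the same reason none could be left out.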

Other observations

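Nearby genes of other antifungal families were also seen to differ. The glucanase-like OS01G0944700, at 7.94 FPKM in PGD1:Roc10 and 3.85-fold more (30.5) in NT, and OS01G0944900, 2.58-fold higher at 12.5 against 4.86 FPKM, lie 4.14 kb apart on chromosome 1 and have opposite directions. Between them lie 2 rows, the glucanase-like OS01G0944800 at 0.171 and 0.130 FPKM and a short RNA row listed at 0 in both libraries. On chromosome 12 the thaumatin genes OS12G0630100 and OS12G0630200 were both lower, at 17.7 against 37.3 FPKM and at 0.666 against 10.5 FPKM. The pairs were chosen after their values were seen.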
